A study of Mus musculus with 26 samples.

Results

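Integrins and laminins are the receptor and ligand sides of cell attachment to the basement membrane, and their genes were followed here through all 26 mouse left ventricles of the study. The set was every gene of the count matrix whose symbol names an integrin alpha chain, an integrin beta chain or a laminin chain. This rule reads no measured value, but the set was chosen with earlier results of these data known. The rule gave 37 of the 56941 genes listed: 18 integrin alpha, 8 integrin beta and 11 laminin genes. Of these, 35 had enough reads to be among the 15357 genes tested, and Lama1 and Itgad did not.

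The study deleted Ppp2r2a, which encodes the B55alpha regulatory subunit of protein phosphatase 2A, in cardiomyocytes and measured poly-A RNA of the left ventricle by RNA sequencing. The Ctrl mice carried floxed Ppp2r2a and no Cre (aMHC-Cre0/0-Ppp2r2aL/L; 6 males and 6 females), and the cKO mice carried the same floxed alleles with the transgene (aMHC-CreTg/0-Ppp2r2aL/L; 7 males and 7 females). The aMHC promoter drives Cre in cardiomyocytes, so other ventricular cells keep the floxed gene. All mice were 12 to 16 weeks old and had received saline from an osmotic minipump for 2 weeks. The floxed line was on C57BL6/N and the Cre line on FVB, so the background was mixed although the strain label reads C57BL/6N. No Cre-positive mice without floxed alleles were analysed here, so loss of Ppp2r2a, presence of Cre and FVB alleles carried with it cannot be told apart. Ppp2r2a itself checked the labels. It lay at 24.1 to 47.7 counts per 1000000 library counts (CPM) in Ctrl males and 11.8 to 16.2 in cKO males, and at 36.2 to 46.7 in Ctrl females and 9.96 to 16.2 in cKO females. The genotypes did not overlap in either sex.

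An integrin is a dimer of 1 alpha and 1 beta chain that spans the cell membrane, binds matrix outside and talin, kindlin and actin inside. Cardiomyocytes use mainly laminin-binding dimers at costameres, the sites that tie the sarcomere's Z-discs to the surrounding basement membrane, while fibroblasts and endothelial cells carry collagen-binding and RGD-binding dimers as well. A laminin is a cross-shaped trimer of 1 alpha, 1 beta and 1 gamma chain that self-assembles into the basement membrane sheet and is bound by integrins and by dystroglycan.

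Library totals ranged from 14403102 to 30867399 counts, and 3 counts, the limit that a count of 0 allows, equalled 0.0972 to 0.208 CPM. Ventricle is a mixture of cells: the 6 cardiomyocyte markers together made up 54844 to 74389 CPM. The 8 endothelial markers summed to 1454 to 2319 CPM and the 8 fibroblast markers to 1984 to 3008 CPM, while the 5 neutrophil markers summed to 0.836 to 2.60 CPM. Of these 5, Ly6g had 0 counts in all 26 libraries and the other 4 were detected. In such a mixture fewer cells of a type and less RNA per cell cannot be told apart.

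Levels of different genes were compared as CPM per kilobase of the longest annotated transcript, averaged over the 26 mice. Itgb1, the beta chain shared by the collagen-binding, laminin-binding and many RGD-binding dimers, was the most abundant of the 37 genes at 103 CPM per kilobase. Lamb2, the laminin beta 2 chain of mature muscle basement membrane, followed at 81.7. Itga7, the alpha chain of the laminin receptor typical of striated muscle, came next at 35.7, close to Itgb5 at 35.1 and Lamc1, the common laminin gamma chain, at 31.9. Lamb1 stood at 23.1, and Itga6, Itga5, Lama4, Lama2, Lama5 and Itga9 lay between 11.1 and 16.1. At the other end Itgad, a leukocyte chain, had 0 to 4 counts per library and Lama1, the alpha chain of embryonic basement membranes, had 0 to 6.

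**Figure D1:**
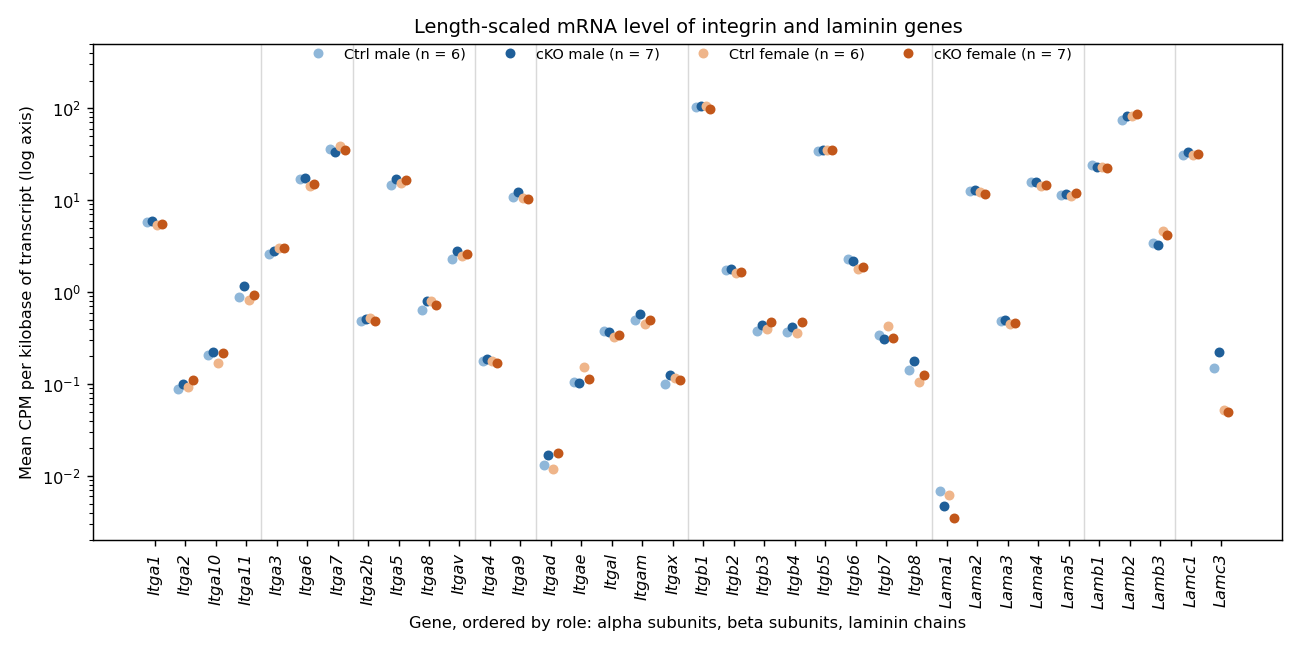
Mean level of integrin and laminin genes in the 4 groups, in CPM per kilobase of transcript on a log axis, with 1 point per group and grey lines between role lists. The 4 points of most genes lie on each other, with Itgb1 near 103 at the top and Lamc3 split by sex near the bottom.

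The abundance of a family rested on few chains. Among integrin alpha chains, Itga7 held 38.1% ± 3.59 (SD, n = 26 mice) of the length-scaled sum, Itga6 17.1%, Itga5 17.1% and Itga9 11.8%. Among beta chains, Itgb1 held 72.0% ± 1.49 and Itgb5, which pairs with Itgav to bind vitronectin, 24.5%. The laminin alpha sum was divided among Lama4 at 38.2%, Lama2 at 31.4% and Lama5 at 29.2%. Lama2 is the chain of the muscle basement membrane, and Lama4 and Lama5 are chains of vessel walls. Lamb2 held 75.1% of the beta sum and Lamb1 21.4%. Lamc1 held 94.1% of the gamma sum. The mRNA shares do not show which chains assembled into protein. Exons of Itga7 overlap the gene Mettl7b on the other strand, and the effect of this on its share was not tested.

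**Figure D2:**
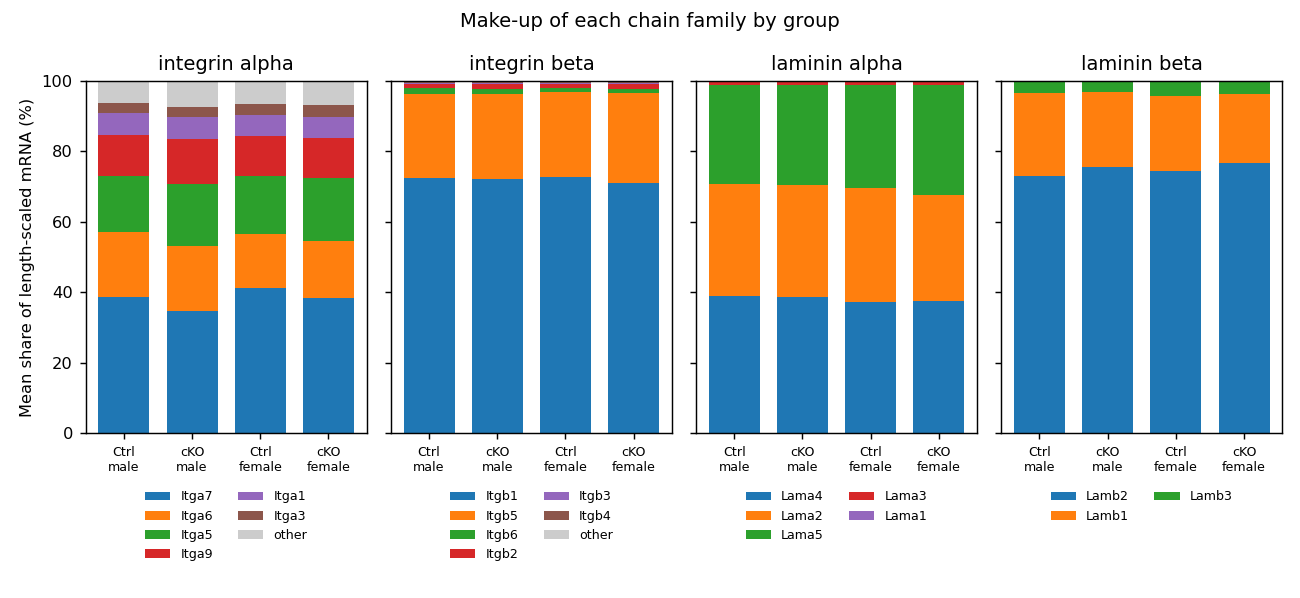
Share of each chain of 4 families in its family's summed CPM per kilobase, as group means stacked to 100%, with up to 6 chains drawn and the rest grey. Itga7, Itgb1, Lama4 and Lamb2 are the lowest block of their family in all 4 groups, and Itga7 is smallest in cKO males at 34.8%.

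Family sums were compared between genotypes by their spread, without a test. The integrin alpha sum was 93.2 ± 4.72 CPM per kilobase in Ctrl males (SD, n = 6) and 96.5 ± 4.29 in cKO males (n = 7), and 93.5 ± 2.15 and 92.1 ± 6.78 in the female groups. The laminin beta sum, which is mostly Lamb2, was 101 ± 9.50 in Ctrl males and 109 ± 6.76 in cKO males, and 109 ± 5.94 and 114 ± 9.45 in Ctrl and cKO females. These ranges overlapped within each sex. The share of Itga7 in the alpha sum was 38.8% ± 2.99 in Ctrl males and 34.8% ± 1.97 in cKO males, and 41.2% ± 3.81 and 38.3% ± 2.76 in Ctrl and cKO females; these shares were not tested. Within a group the coefficient of variation of the 35 tested genes had a median of 14.7% to 21.9%, from 2.17% for Itgb1 in cKO males to 102% for Itga2 in Ctrl females.

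The first comparison asked which of these genes differed between cKO and Ctrl ventricles of males. Itgav, the alpha V chain that binds RGD motifs in fibronectin and vitronectin and can release latent TGF-beta, was higher in cKO males, 1.23-fold. None of the other 34 passed, none of the 10 laminin genes among them. The direction was more uneven than the calls: 28 of 35 fold changes were positive, with a median of 0.10 on the log2 scale, against 50.3% and 0.00 over all genes tested. A gene was called where edgeR's quasi-likelihood test gave a Benjamini-Hochberg adjusted p under 0.05 over all 15357 genes. By that rule 0.443% of all genes were called in males (0.182% higher in cKO), and 1 of 35 here. At an unadjusted p under 0.05, 5 members were higher and 0 lower, where 6.11% of all genes were higher and 7.09% lower. The count of positive values depended on the mice and on the model. With 1 male left out it ranged from 24 (without Ctrl male 5) to 30 (without cKO male 5). Without cKO male 7 it was 25, and the median was 0.05. With the replicate number as a block it was 24, with a median of 0.05, where 49.9% of all genes were positive. It was 22 of 35 with an offset for transcript length and GC content, where 44.7% of all genes were positive. With that offset and the replicate number as a block it was 17 of 35, where 44.6% of all genes were positive.

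The promoter windows of Itgav and of Itga5, the alpha chain that also receives fibronectin, are shown because these were the RGD-binding chains of smallest p. Both come from RefSeq (build GRCm38.p6), run 5′ to 3′ on the gene's strand from 250 bases before the start to 50 after, and carry in capitals each GC box (GGGCGG or its reverse complement CCGCCC). The Itgav window is chr2:83724147-83724446 on the plus strand and that of Itga5 chr15:103366742-103367041 on the minus strand.
Itgav: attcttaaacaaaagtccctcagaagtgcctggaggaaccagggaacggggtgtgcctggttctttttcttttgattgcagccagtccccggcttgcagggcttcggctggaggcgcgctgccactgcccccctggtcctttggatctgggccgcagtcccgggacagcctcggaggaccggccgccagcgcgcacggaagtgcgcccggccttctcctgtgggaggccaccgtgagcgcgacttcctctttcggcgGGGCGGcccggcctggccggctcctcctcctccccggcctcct
Itga5: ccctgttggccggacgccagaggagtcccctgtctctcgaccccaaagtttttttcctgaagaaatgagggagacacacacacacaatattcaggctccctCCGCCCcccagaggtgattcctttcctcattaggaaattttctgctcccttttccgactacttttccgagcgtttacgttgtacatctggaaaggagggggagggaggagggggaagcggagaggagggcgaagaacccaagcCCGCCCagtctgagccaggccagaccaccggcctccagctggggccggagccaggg
The Itgav window had 1 GC box and 67.3% G and C, and the Itga5 window had 2 GC boxes and 58.7%. Neither window held any of 5 other motifs searched on both strands. Windows of these genes on a single chromosome were left out of the search, while the windows of all genes included that chromosome. The 26 windows searched belonged to 23 of the 37 integrin and laminin genes. The other genes had no window in the search, and not all of them lie on that chromosome. Of the 26 windows, 12 (46.2%) held a GC box, against 35.7% of all 32851 windows. The TATA box, searched as TATAAA, was found in 0 of 26 against 13.6%, and the letters CCAAT in 4 (15.4%) against 37.4%. The TEAD motif GGAATG occurred in 3 (11.5%) against 14.7%. The AP-1 motif TGANTCA occurred in 3 (11.5%) against 7.81%, and the CArG box of serum response factor in 2 (7.69%) against 1.63%. These letters describe the windows and are no evidence of binding.

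Itgav (ENSMUSG00000027087) ranged from 13.5 to 17.5 CPM in Ctrl males with a median of 16.5, and from 17.5 to 22.6 with a median of 19.0 in cKO males. All 7 cKO males lay above every Ctrl male, although the lowest cKO mouse and the highest Ctrl mouse were nearly level. Among all genes tested, 1.28% had male groups that did not overlap. The means were 16.2 ± 1.46 (SD, n = 6) and 19.9 ± 1.75 (n = 7), a log2 fold change of 0.30 (SE 0.07; adjusted p = 0.0486, edgeR). The edgeR call sat at the threshold: it was lost in 12 of 13 refits that each left out 1 male (adjusted p up to 0.107, log2 fold change 0.25 to 0.33) and kept only without Ctrl male 6. With the length and GC offset the log2 fold change was 0.23 with an adjusted p of 0.111. Itgav exons overlap Gm13684 on the other strand, and whether strand was used in counting is not given in the sources used here.

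None of the other RGD-binding chains passed. Itga5 spanned 60.4 to 69.9 CPM in Ctrl males (median 65.2) and 64.5 to 84.4 in cKO males (median 79.5). The groups overlapped, with 5 of 7 cKO males above the Ctrl mean, and the log2 fold change was 0.21 (SE 0.08, adjusted p = 0.21). Itga8, a chain of mesenchymal cells that binds nephronectin, spanned 2.95 to 4.25 CPM (median 4.0) and 3.57 to 5.66 (median 4.84), with a log2 fold change of 0.32 and an adjusted p of 0.301. Itga2b, the platelet chain, was at 1.66 ± 0.562 and 1.77 ± 0.831 CPM, with 2 of 7 cKO males above the Ctrl mean.

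Collagen-binding chains were all positive in both sexes, 4 of 4, and none was called. Itga1, the most abundant of them, had 55.5 to 74.5 CPM in Ctrl males (median 62.5) and 54.7 to 76.7 in cKO males (median 65.8), almost the same range. Itga11, a fibroblast receptor for fibrillar collagen, averaged 4.39 ± 0.936 and 5.74 ± 0.900 CPM, a log2 fold change of 0.38 (SE 0.18, adjusted p = 0.348). All 7 cKO males were above its Ctrl mean, yet the groups overlapped. Itga2 was at 0.629 ± 0.273 and 0.704 ± 0.302 CPM and Itga10 at 1.03 ± 0.380 and 1.12 ± 0.215.

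Among laminin-binding chains Itga7 pointed the other way. In males it spanned 127 to 154 CPM in Ctrl (median 147) and 117 to 148 in cKO (median 132), with 6 of 7 cKO males under the Ctrl mean. The log2 fold change was -0.10 (SE 0.06, adjusted p = 0.508). Itga6, which pairs with Itgb1 or Itgb4, averaged 74.2 ± 13.4 and 76.0 ± 6.74 CPM, and Itga3 12.5 ± 1.57 and 13.8 ± 1.86. Itga9, which binds tenascin and osteopontin, spanned 62.8 to 90.1 CPM in Ctrl males (median 78.1) and 72.1 to 106 in cKO males (median 83.3), with a log2 fold change of 0.19 (adjusted p = 0.42). Itga4, which binds VCAM-1, was at 1.73 ± 0.376 and 1.84 ± 0.411.

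The leukocyte chains were low. Itgam, the chain of macrophages and neutrophils and the most abundant of them per length, spanned 1.64 to 3.09 CPM in Ctrl males (median 2.38) and 1.19 to 3.77 in cKO males (median 2.60). Itgal, Itgax and Itgae averaged 0.399 to 1.99 CPM in the male groups. Itgb2, the beta chain that pairs with Itgal, Itgam and Itgax, averaged 5.11 ± 1.0 and 5.28 ± 1.38. The 8 macrophage markers summed to 238 to 401 CPM in Ctrl males and 261 to 410 in cKO males, with 0 of 8 called, and their part in these values was not tested.

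No beta chain was called in males, where 6 of 8 fold changes were positive with a median of 0.05 on the log2 scale. Itgb1 spanned 377 to 426 CPM in Ctrl males (median 395) and 385 to 410 in cKO males (median 405), so the cKO mice lay inside the Ctrl range. Itgb7, a lymphocyte chain, had a log2 fold change of -0.15 (adjusted p = 0.85). Itgb5 was at 112 ± 5.46 and 117 ± 8.86 CPM, and Itgb3, Itgb6 and Itgb8, which also pair with Itgav, averaged 1.19 to 11.1 CPM in the male groups. No beta partner of Itgav was called with it.

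No laminin chain was called in males, where 8 of 10 fold changes were positive with a median of 0.04. Lamb2 spanned 345 to 489 CPM in Ctrl (median 417) and 395 to 515 in cKO (median 465), with a log2 fold change of 0.15 (SE 0.07, adjusted p = 0.362). Lamb1 had a log2 fold change of -0.05. Lama4 spanned 84.4 to 111 CPM (median 93.3) and 87.8 to 102 (median 96.7), so the cKO mice lay within the Ctrl range. Lamc1 spanned 219 to 268 (median 231) and 231 to 267 (median 260), with a log2 fold change of 0.10 (adjusted p = 0.558). Lama2, whose loss causes a congenital muscular dystrophy, was at 122 ± 9.14 and 124 ± 10.2 CPM.

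The summed level of the cardiomyocyte markers was 63623 to 69628 CPM in Ctrl and 54844 to 65914 in cKO males, with 5 of 6 markers negative and Tnni3, cardiac troponin I, called lower (log2 fold change -0.24, adjusted p = 0.0316). The fibroblast sum was 1984 to 2673 and 2246 to 2658 CPM, with 7 of 8 positive and 0 called. The endothelial sum was 1541 to 2291 and 1454 to 1945, with 6 of 8 negative and 0 called. The part of these markers in the Itgav difference was not tested.

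**Figure D3:**
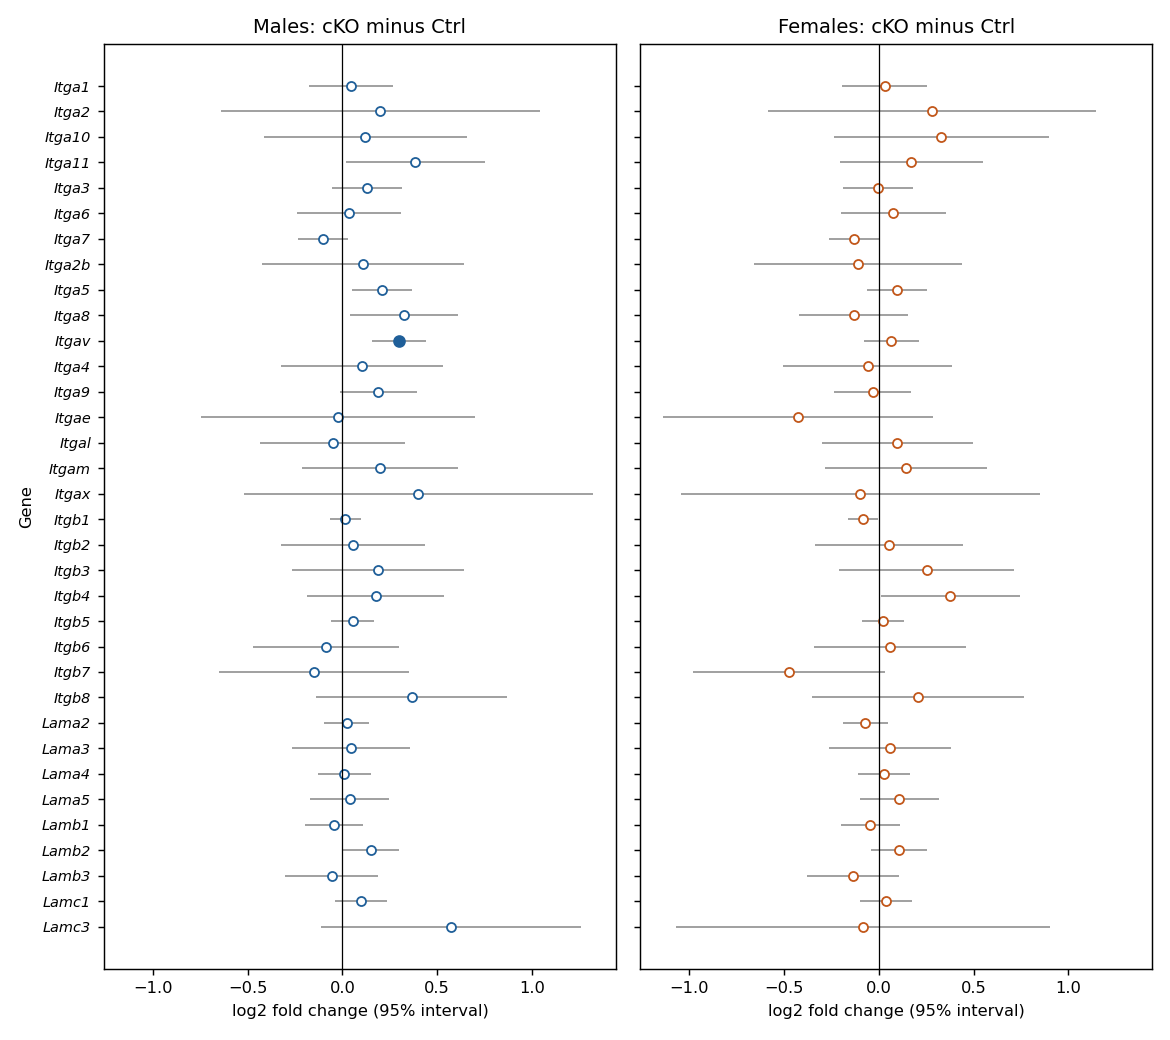
Log2 fold change of cKO against Ctrl for tested integrin and laminin genes in males (left) and females (right), with 95% intervals and genes ordered by role. The filled point is Itgav in males, the only call, and open points did not pass.

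In females 0 of 35 genes were called by edgeR, where 0.0326% of all genes were. Positive fold changes numbered 20 of 35, with a median of 0.03, against 51.1% of all genes. With the length and GC offset they numbered 17, against 45.1% of all genes. At an unadjusted p under 0.05, 1 member was higher and 1 lower, where 2.73% and 2.42% of all genes were, and neither DESeq2 nor limma voom called any. Itgav spanned 15.4 to 19.8 CPM in Ctrl females (median 17.0) and 17.0 to 20.4 in cKO females (median 17.8). The groups overlapped and the log2 fold change was 0.07 (SE 0.07, 95% interval -0.08 to 0.21, adjusted p = 0.982, edgeR).

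The smallest p in females belonged to Itgb1, whose cKO mice averaged 379 ± 17.2 CPM against 401 ± 14.2 in Ctrl. It spanned 388 to 420 (median 398) and 357 to 404 (median 379), overlapping, with a log2 fold change of -0.08 (SE 0.04, adjusted p = 0.948). Itgb4, the beta chain of hemidesmosomes, averaged 2.25 ± 0.330 and 2.91 ± 0.799 CPM (log2 fold change 0.38, adjusted p = 0.948). Itgb7 averaged 1.16 ± 0.373 and 0.846 ± 0.228, with all 7 cKO females under the Ctrl mean and overlapping groups. Itga7 spanned 133 to 176 CPM (median 156) and 128 to 158 (median 141), with a log2 fold change of -0.13 (SE 0.06, adjusted p = 0.948), on the same side as in males. Itga5 was at 68.6 ± 5.22 and 73.2 ± 9.75 CPM and Lamb2 at 459 ± 30.5 and 493 ± 46.6, both on the side seen in males and neither called.

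Whether the genotype effect differed between the sexes was tested as an interaction, the female effect minus the male effect. No member and no other gene was called (0% of all genes), and at an unadjusted p under 0.05 2 members were lower and 0 higher, against 1.91% and 2.04% of all genes. Positive differences numbered 11 of 35, against 51.6% of all genes, and DESeq2 also called 0 members. The members under an unadjusted p of 0.05 were Itgav, with a difference of -0.23 (SE 0.10, unadjusted p = 0.0262, adjusted p = 0.999), and Itga8, with -0.46 (SE 0.20, adjusted p = 0.999). Itga8 averaged 3.74 ± 0.534 and 4.69 ± 0.660 CPM in Ctrl and cKO males, and 4.68 ± 0.873 and 4.24 ± 0.861 in Ctrl and cKO females, and between the Ctrl sexes its log2 fold change was 0.32 (adjusted p = 0.368). The call of Itgav in males and its absence in females therefore do not show that the sexes differed. Itgb1 had -0.10, and on the positive side were Itga10 with 0.21, Itgb4 with 0.20 and Itgal with 0.15, each with an adjusted p of 0.999. The sign of Itga10 turned, to -0.12, when both Ctrl males with the lowest Ppp2r2a were omitted.

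Averaged over both sexes, no member was called, where 1.33% of all genes were. Itgav came closest with a log2 fold change of 0.18 (SE 0.05, adjusted p = 0.0571), and DESeq2 called it. Itga5 had 0.15 (adjusted p = 0.164), Itga7 -0.12 (adjusted p = 0.209) and Lamb2 0.13 (adjusted p = 0.222). At an unadjusted p under 0.05 there were 5 members higher and 1 lower, against 6.43% and 7.7% of all genes. Positive values numbered 26 of 35, against 51.6% of all genes. With the length and GC offset they numbered 19, against 44.4% of all genes, and with that offset and the replicate block 17, against 45.0%.

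**Figure D4:**
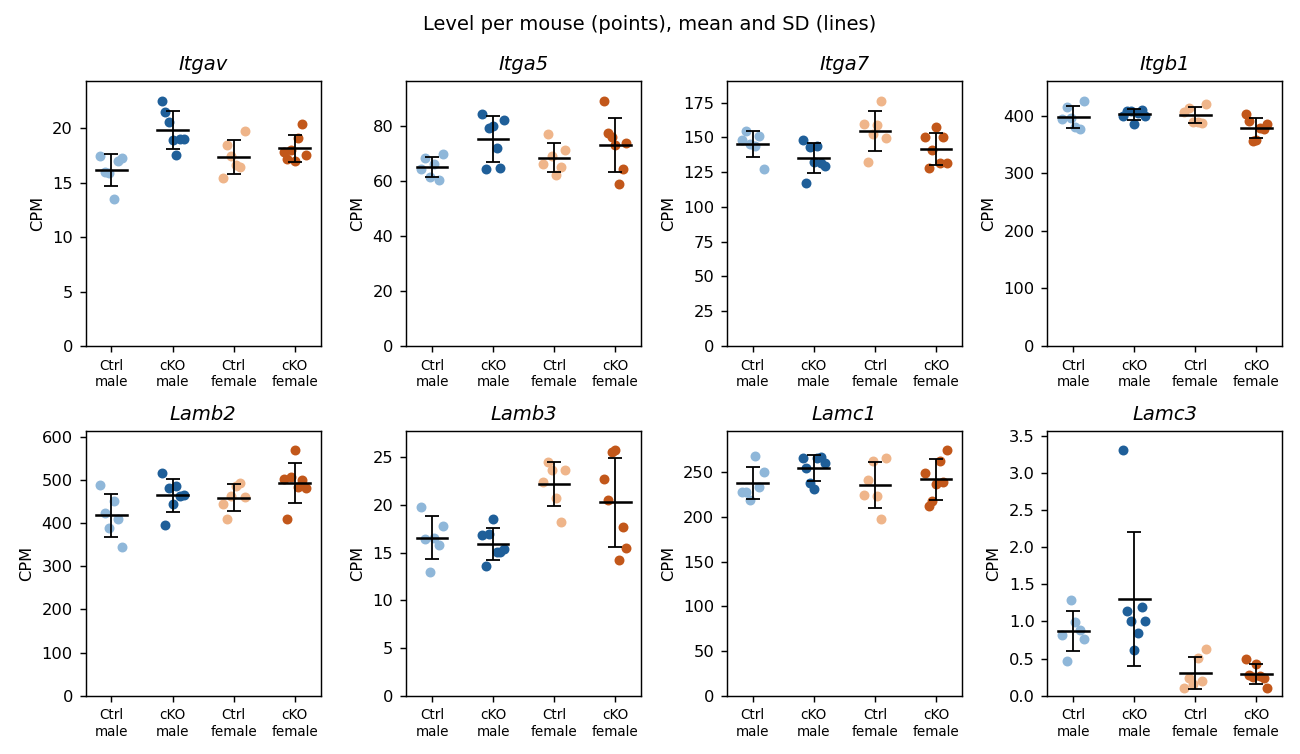
CPM in each mouse for 8 integrin and laminin genes, with points for mice and black lines for the group mean and SD, on axes from 0. The cKO males sit above the Ctrl males for Itgav, and for Lamc3 the cKO males lie above the cKO females, the Ctrl groups overlap and 1 cKO male reaches 3.30.

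Sex differences were tested within each genotype. The largest among the 35 genes was in Lamc3 (ENSMUSG00000026840), the laminin gamma 3 chain found in few basement membranes, whose level in cKO females was 0.228 times that in cKO males. It was the only member called there, where 2.7% of all genes were (1.27% lower in females). In Ctrl mice 0 of 35 were called, against 0.638% of all genes. At an unadjusted p under 0.05 6 members were lower and 1 higher in cKO females, against 8.15% and 9.11% of all genes. In Ctrl females 1 was lower and 3 higher, against 5.87% and 6.2%. Positive values numbered 11 of 35 in cKO and 15 of 35 in Ctrl, against 51.9% and 51.1% of all genes. In Ctrl mice the DESeq2 Wald test called 2 members, Lamb3 and Lamc3.

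Lamc3 spanned 0.617 to 3.30 CPM in cKO males (median 1.01; 13 to 76 counts) and 0.101 to 0.492 in cKO females (median 0.266; 2 to 10 counts). No cKO female reached a cKO male, which held for 1.09% of all genes. The log2 fold change was -2.14 (SE 0.39, adjusted p = 0.00293, edgeR). In Ctrl mice it spanned 0.469 to 1.28 CPM in males (median 0.854) and 0.0996 to 0.631 in females (median 0.220). All 6 Ctrl females lay under the male mean and the groups overlapped, with a log2 fold change of -1.48 (SE 0.42, adjusted p = 0.0948, edgeR). The difference between the genotypes in this sex effect was -0.66 (SE 0.59, adjusted p = 0.999). The 76 counts were those of cKO male 1, and without that mouse the value between cKO sexes was -1.71 (adjusted p = 0.00807). Lamc3 exons overlap the antisense gene Gm13441, and the effect of this on its low counts was not tested.

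Lamb3, a laminin beta chain of epithelial basement membranes, had positive values in females of both genotypes. It spanned 13 to 19.7 CPM in Ctrl males (median 16.5) and 18.3 to 24.5 in Ctrl females (median 23.0), with a log2 fold change of 0.42 (SE 0.12, adjusted p = 0.107) and all 6 females above the male mean. In cKO mice it was 15.9 ± 1.64 and 20.3 ± 4.66 CPM (log2 fold change 0.35, adjusted p = 0.0968, and 0.0344 without cKO female 5). Lama3, an alpha chain it assembles with, was at 5.25 ± 1.07 and 4.86 ± 0.906 in cKO males and females. Among integrin chains, Itga3 had 0.23 in Ctrl females against males (adjusted p = 0.292) and Itgb6, an epithelial chain that pairs with Itgav, -0.38 (adjusted p = 0.455). Lamb2 differed by 0.09 between the sexes in cKO mice.

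Beside these sex contrasts all 8 macrophage markers had negative log2 fold changes in females against males in both genotypes, with 0 of 8 called and a median of -0.20 in each. Their sums were 238 to 401 CPM in Ctrl males and 219 to 308 in Ctrl females, and 261 to 410 and 215 to 334 in cKO mice. Of the 8 fibroblast markers 5 had positive values in cKO females against cKO males, with a median of 0.08, and 1 was called, Col1a2, which was lower in cKO females (log2 fold change -0.40, adjusted p = 0.0307). Of the cardiomyocyte markers Tnni3 was higher (0.24, adjusted p = 0.00821). Their part in the laminin values was not tested.

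The genes that work with integrins and laminins were read from 3 lists of 67 genes, 64 of them tested. These lists were also chosen with earlier results of these data known. In males 2 were called higher and 1 lower, where 0.443% of all genes were called, with 46 of 64 positive and a median of 0.08, against 50.3% of all genes positive. Hspg2, which encodes the basement membrane proteoglycan perlecan, spanned 495 to 590 CPM in Ctrl males (median 551) and 593 to 719 in cKO males (median 686). The groups did not overlap, and the log2 fold change was 0.30 (SE 0.06, adjusted p = 0.0272, edgeR). Fn1, fibronectin, a ligand of Itgav and Itga5 dimers, averaged 38.4 ± 4.63 and 55.4 ± 8.21 CPM with a log2 fold change of 0.53 (SE 0.12, adjusted p = 0.0397). Itgb1bp2, which encodes melusin, a muscle protein that binds the Itgb1 tail, fell from 199 ± 13.8 to 166 ± 13.5 CPM without overlap (log2 fold change -0.26, SE 0.05, adjusted p = 0.0316).

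All 3 calls were lost with the length and GC offset, where Hspg2 had 0.16 (adjusted p = 0.235), Fn1 0.44 (adjusted p = 0.106) and Itgb1bp2 -0.22 (adjusted p = 0.0875). Of 13 refits with 1 male left out, Hspg2 was called in 7, losing the call without Ctrl male 2, 3 or 5 or cKO male 2, 5 or 6 (adjusted p up to 0.0873). Itgb1bp2 was called in 7, losing it without Ctrl male 1 or 5 or cKO male 1, 2, 5 or 6 (up to 0.107). Fn1 was called in 5, those without Ctrl male 4 or 6 or cKO male 1, 3 or 4 (up to 0.123 in the others). Among the 34 tested adaptors and kinases, Itgb1bp2 was the only call. Tln1, talin, the adaptor that activates integrins, had 0.14 in males (adjusted p = 0.155) and 0.10 in females. Postn, periostin, had 0.69 in males with an adjusted p of 0.156.

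In females edgeR called none of the 64, where 0.0326% of all genes were called. At an unadjusted p under 0.05, 3 were higher and 1 lower, against 2.73% and 2.42% of all genes. Beside Tln1, the genes named for a small p were Vcam1 at 0.25, Hspg2 at 0.13, Tns3 at 0.15 and Icam2 at -0.19. Hspg2 spanned 526 to 625 CPM in Ctrl females and 559 to 737 in cKO females. Over both sexes 2 of the 64 were called higher and 2 lower, where 1.33% of all genes were called. Hspg2 (0.22, adjusted p = 0.0119) and Fn1 (0.35, adjusted p = 0.0313) were higher, and Itgb1bp2 (-0.18, adjusted p = 0.0168) was among the lower in cKO. Fn1 lost that call with the offset and in 10 of 26 refits with 1 mouse left out, and Hspg2 with the offset. By sex, 1 of the 64 was called in Ctrl mice, where 0.638% of all genes were, and 1 in cKO mice, where 2.7% were. Tns2, tensin 2, was higher in Ctrl females (0.33, adjusted p = 0.031). Utrn, utrophin, the dystrophin homologue that links laminin-bound dystroglycan to actin, was lower in cKO females (-0.28, adjusted p = 0.000954).

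**Figure D5:**
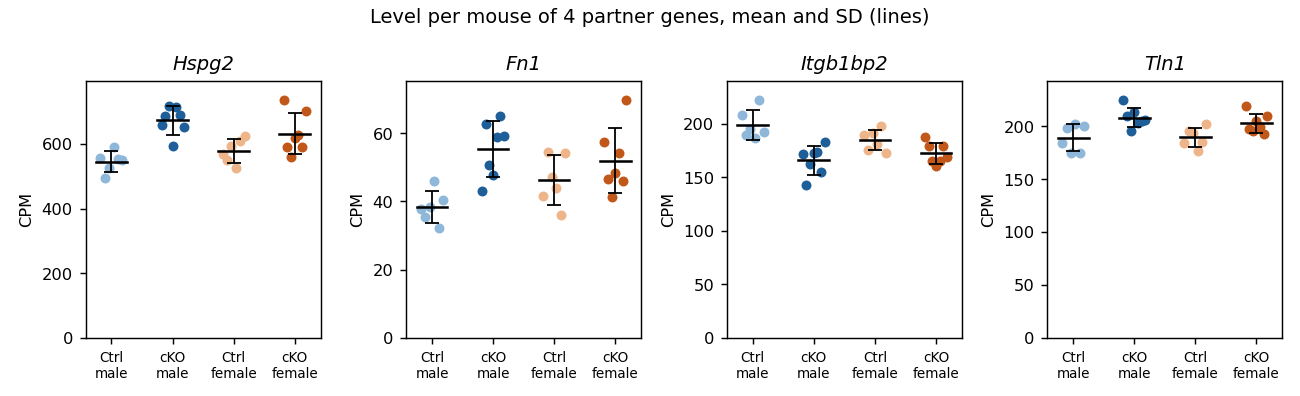
CPM in each mouse for Hspg2, Fn1, Itgb1bp2 and Tln1 in the 4 groups, with points for mice and black lines for the mean and SD, on axes from 0. Male groups separate for Hspg2 and Itgb1bp2 and overlap for Fn1 and Tln1, and female groups overlap for all 4.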

How the data were processed

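Poly-A RNA of 26 left ventricles was sequenced from stranded libraries, per the labels' protocols (500 ng of RNA from about 20 mg of tissue, RNA integrity number at least 7.7). The deposited values are raw counts of reads per gene, in whole numbers. FastQC 0.74, cutadapt 4.6, STAR 2.7.11a, HTSeq and build GRCm39 are named in the submitters' processing notes. The use of strand in counting is not given in the sources used here. In GENCODE, exons of Itga1, Itga10 and Itgam overlap other protein-coding genes on the same strand, and those of Itgad a pseudogene. Exons of Itga4, Itga7, Itga8, Itgad, Itgav, Itgb4, Lama2, Lama3 and Lamc3 overlap genes on the other strand. The effect of these overlaps on the counts was not tested. No within-group pair of libraries agreed within sampling noise (chi-square per degree of freedom 7.19 to 33.4 over 72 pairs). The labels give each sample as a separate replicate without naming an animal, so p-values measure the spread between these samples.

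The model was fitted with edgeR 4.0.16 (R 4.3.3): filterByExpr (minimum count 10), TMM, 1 fit with 4 group means, robust quasi-likelihood F tests and Benjamini-Hochberg adjustment over 15357 genes. Each standard error is the log2 fold change divided by the root of its F value. CPM used TMM-scaled totals. Transcript lengths, GC content and exon overlaps came from a GENCODE release on GRCm38.p6, another build than that of the counts. Lengths were matched by gene ID for 98.3% of tested genes and all 37 members. Promoter windows came from RefSeq on GRCm38.p6, another build than that of the counts, so no other coordinates are given.

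Genes named with values are members called in any contrast, members of smallest p per direction, the most abundant member of each role list, and partner genes called or of smallest p. Some genes that this rule selects are not reported here or drawn in the figures. The members and lists were chosen with earlier results of these data known. Alternatives were DESeq2 1.42.0 size factors and Wald test, limma 3.58.1 voom, estimation without robustness, omission of the filter, a filter at a mean of 5 CPM, fits of the compared groups alone, an offset for length and GC content (splines with 4 degrees of freedom), the replicate number as a block, other thresholds and each mouse left out. Omission of both Ctrl males with the lowest Ppp2r2a was chosen after seeing the data. The fit was tested on simulated data.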

Additional observations from a re-analysis of the deposited data

Results flagged for a closer look

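In groups of 6 or 7 mice, a highest or lowest value was picked out where its gap to the next mouse was large for the range of its group by Dixon's criterion, applied to 21 genes in 84 groups. Chance picks out about 1 group in 20, and 2 of 84 were found. Lamc3 in cKO male 1 was at 3.30 CPM, where the next highest cKO male was at 1.20, a gap of 0.783 of the group's range. Itga9 in Ctrl female 6 was at 91.2 CPM, where the next highest Ctrl female was at 74.6, a gap of 0.631 of the range. Itga9 was not called in any contrast, and the value of Lamc3 without cKO male 1 stands beside its result.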

How the results depend on the processing

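The count of members called in males, 1 (Itgav), was 0 without a filter, with only the groups compared, with the length and GC offset, with that offset and the replicate block, at an adjusted p under 0.01, and without both Ctrl males of lowest Ppp2r2a. It ranged from 0 to 1 with 1 mouse left out. For the mean of both sexes the count of 0 became 1 (Itgav) with the DESeq2 Wald test, at a mean of at least 5 CPM and at an adjusted p under 0.1, and ranged from 0 to 1 with 1 mouse left out (1 without cKO male 5, Ctrl female 6 or cKO female 2). For females against males in Ctrl, 0 became 2 (Lamb3 and Lamc3) with the Wald test and 1 (Lamc3) at an adjusted p under 0.1. In cKO, 1 (Lamc3) became 2 with the Wald test and 3 at an adjusted p under 0.1, and ranged from 1 to 2 with 1 mouse left out (2 without cKO male 3, cKO female 5 or cKO female 6). The female and interaction counts were 0 under every alternative run. The replicate block gave 1 member in males and 1 in cKO mice of both sexes, as without it. Mean correlations of same-numbered mice were -0.03 in males and 0.12 in females, against 0.004 and -0.02 for other pairs. In females the same-numbered mean was thus the higher, with values up to 0.404. What same-numbered mice share was not tested, and the numbers were not taken as pairs in the main fit. Values of named genes numbered 426 over the settings other than leaving 1 mouse out. These settings included the omission of both low-Ppp2r2a Ctrl males. Of the 426, 395 kept their direction and side of the threshold, 24 lost the call, 6 gained one and 1 turned. The value that turned was Itga10 in the interaction, from 0.21 to -0.12, in the fit without both low-Ppp2r2a Ctrl males. With 1 mouse left out, 629 of 676 kept both, 44 lost the call, 3 gained one and 0 turned. The cause was not tested. Lamc3 was not tested at a mean of at least 5 CPM. Lama1 and Itgad had too few counts to be tested.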
